A study of Mus musculus with 4 samples.

Results

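Major histocompatibility complex (MHC) class II molecules present peptides taken up into endosomes to CD4+ T cells. Described here are 6 genes of that route, H2-Ab1, H2-Aa, H2-Eb1, H2-DMa, Cd74 and Ciita, of the 22144 gene symbols that could be joined between both deposited tables. The members were picked by symbol, after a comparison of libraries labelled MSC KO with WT libraries had been seen, so their values in that comparison are given as a description. Counts of members past a threshold are printed beside the share of all genes and support nothing. The cells were iTreg cells, regulatory T cells induced in culture from sorted naive T cells of C57BL/6 mice, either WT or MSC KO. All cultures ran for 3 days with TGF-beta (2 ng/ml) on a plate coated with anti-CD3 and anti-CD28 (1 µg/ml). Msc encodes musculin, a transcription factor of the helix-loop-helix family. The labels give no age, no details of the targeted allele, and no word on whether replicates came from separate mice or cultures.

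A class II molecule is a dimer of an alpha and a beta chain. In the endoplasmic reticulum the invariant chain, encoded by Cd74, fills its peptide groove. H2-DM, a dimer of the H2-DMa and H2-DMb products, later exchanges the remnant of that chain for a peptide, and H2-DO, a dimer of the H2-Oa and H2-Ob products, restrains H2-DM. Transcription of these genes in B cells, dendritic cells and macrophages depends on CIITA, a coactivator that does not bind DNA itself and is recruited by factors on the X and Y boxes of class II promoters. Mouse T cells, unlike activated human T cells, are known to make little class II protein of their own.

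There were 4 libraries, WT 1 and MSC KO 1 in the first deposited table and WT 2 and MSC KO 2 in the second. The values were taken to be FPKM, a level per length of transcript and per sequencing depth. The step that 1 fragment makes in low values put the depth at 25499100 to 35156600 fragments. All 10 T cell markers were between 18.3 and 506 FPKM. Msc was below 1 FPKM in every library, and higher in the libraries labelled MSC KO. It stood at 0.331 and 0.939 FPKM in MSC KO 1 and 2, and 0.0243 and 0.0178 FPKM in WT 1 and 2. With the targeted allele not described, these low values neither bear out the labels nor contradict them. Directions below are for the libraries as labelled. Foxp3, the factor that defines Treg cells, was at 62.8 and 66.0 FPKM in WT 1 and 2 and at 2.97 and 7.05 FPKM in the libraries labelled MSC KO. The WT libraries were more alike, with a median absolute difference of 0.07 on the log2(FPKM + 1) scale over the 10603 genes with a mean of at least 1 FPKM, against 0.17 between the libraries labelled MSC KO.

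The 6 genes covered a wide range of levels. In order of mean FPKM over the 4 libraries they were Cd74 (94.9), H2-DMa (65.8), H2-Ab1 (49.996), H2-Eb1 (9.03), H2-Aa (2.18) and Ciita (0.0471). Neighbours at the top of that order overlapped in range, Cd74 with H2-DMa and H2-DMa with H2-Ab1, while H2-Eb1 was below H2-Ab1 and above H2-Aa in each library. Among the 10603 genes, Cd74 stood at percentiles 84.4 to 92.0 in the 4 libraries, and H2-Aa at percentiles 2.92 to 20.2. Abundant Cd74 and H2-DMa transcripts were thus measured in the same libraries as a Ciita level near 0.

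**Figure D1:**
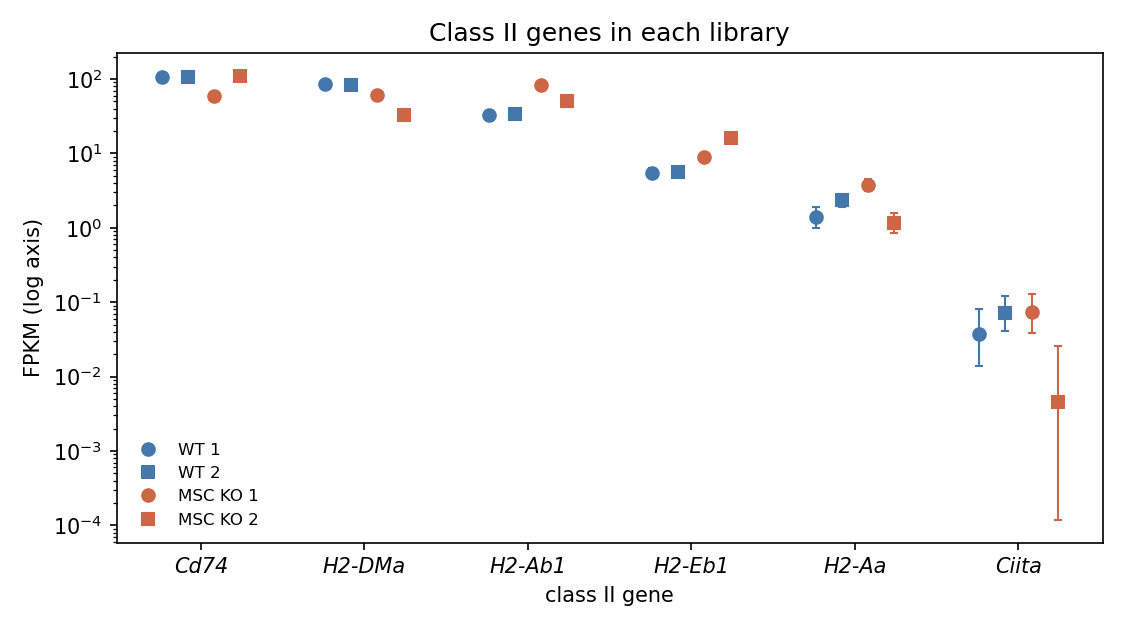
FPKM on a log axis for the 6 class II genes, ordered by mean; blue points are WT and orange points MSC KO-labelled libraries, circles replicate 1 and squares replicate 2. Bars are exact Poisson 95% intervals from the estimated fragments and cover counting error only; Cd74 is at 105 to 109 FPKM in 3 libraries while Ciita is below 0.1 FPKM in each.

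Ciita was at 0.0377 and 0.0726 FPKM in WT 1 and WT 2, and at 0.0736 and 0.00462 FPKM in MSC KO 1 and MSC KO 2. On a transcript of 6007 bp that is about 6 and 15 fragments in WT, then 12 and 1. The groups overlapped, and the exact Poisson 95% limits on the lowest library (0.000117 to 0.0257 FPKM, counting error only) overlapped those of WT 1 (0.0138 to 0.0820 FPKM) but lay below those of WT 2 (from 0.0406 FPKM) and MSC KO 1 (from 0.0380 FPKM). The libraries labelled MSC KO were thus the highest and the lowest of the 4, and no difference between the labels was detectable. Its locus is on chromosome 16 (mm9, 10488371 to 10527657, positions as the tables give them).

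H2-Ab1 encodes the beta chain of the class II A molecule and H2-Aa its alpha chain, and both lie on chromosome 17 (mm9, 34400171 to 34406363 and 34419695 to 34424716). H2-Ab1 was at 32.5 and 33.4 FPKM in WT 1 and WT 2, and at 83.2 and 51.0 FPKM in MSC KO 1 and MSC KO 2. Both libraries labelled MSC KO were above both WT libraries, and the WT values lay close together. The ratio of MSC KO-labelled to WT FPKM was 2.56 (first table) and 1.53 (second table), a mean difference of 0.96 ± 0.52 (SD, n = 2 tables) on the log2(FPKM + 1) scale. H2-Aa was far lower, at 1.40 and 2.34 FPKM in WT 1 and WT 2 (about 40 and 93 fragments), and at 3.79 and 1.17 FPKM in MSC KO 1 and MSC KO 2 (about 120 and 43). Its groups overlapped, since MSC KO 1 was the highest library and MSC KO 2 the lowest. The difference was 1.00 (first table) and -0.62 (second table), a mean of 0.19 ± 1.14 (SD, n = 2 tables), so that the alpha chain did not follow its beta chain in the second table.

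H2-Eb1 encodes the beta chain of the class II E molecule (chromosome 17, mm9, 34442811 to 34453619). C57BL/6 mice are known to make no E molecule because their alpha chain gene is defective, and the tables list that gene, H2-Ea-ps, at 0 FPKM in all 4 libraries. H2-Eb1 was at 5.52 and 5.58 FPKM in WT 1 and WT 2, and at 8.83 and 16.2 FPKM in MSC KO 1 and MSC KO 2. Its libraries labelled MSC KO were again above WT, with ratios of 1.60 and 2.90 in the first and second table and a mean difference of 0.99 ± 0.56 (SD, n = 2 tables). MSC KO 2 was the higher of the libraries labelled MSC KO for H2-Eb1, and MSC KO 1 for H2-Ab1. H2-Eb2, a related beta chain gene, was at 0.408 and 0.373 FPKM in WT 1 and 2 and at 0.00994 and 0.123 FPKM in MSC KO 1 and 2.

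H2-DMa, the alpha chain of the peptide exchange factor H2-DM (chromosome 17, mm9, 34272615 to 34275480), was at 86.6 and 82.4 FPKM in WT 1 and WT 2, and at 61.6 and 32.6 FPKM in MSC KO 1 and MSC KO 2. Both libraries labelled MSC KO were below both WT libraries. The ratio was 0.712 (first table) and 0.395 (second table), a mean difference of -0.90 ± 0.59 (SD, n = 2 tables). H2-DMa was thus on the other side of WT from H2-Ab1 and H2-Eb1, in both tables.

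Cd74, the invariant chain gene on chromosome 18 (mm9, 60963502 to 60972306), was at 105 and 107 FPKM in WT 1 and WT 2, and at 58.7 and 109 FPKM in MSC KO 1 and MSC KO 2. MSC KO 1 stood alone below the other libraries, which lay within a narrow range. The difference was -0.83 (first table) and 0.03 (second table), a mean of -0.40 ± 0.61 (SD, n = 2 tables). Per unit of H2-Ab1, Cd74 was at 3.24 and 3.19 in WT 1 and 2, 0.706 in MSC KO 1 and 2.14 in MSC KO 2, so that H2-Ab1 exceeded Cd74 in MSC KO 1 only.

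Of the 6 genes, 2 had both MSC KO-labelled libraries above both WT libraries, 1 had both below and 3 overlapped. Over the 10603 genes, the share apart in either direction was 59.1% (26.6% higher, 32.5% lower), and the tables may have been scaled apart. The 2 tables gave opposite signs for 3 of the 6 genes, beside 30.9% of the 10603. Ciita had too low a mean to be tested, and of the other 5 genes 0 passed an adjusted p of 0.05 by limma, where 0.00943% of all genes did. The authors' own test of 1 library against 1 marked 0 of 5 members with a tested row in either table, beside 0.655% (first table) and 0.549% (second table) of all symbols with such a row. The members were chosen on these contrasts, so nothing is read from these counts. The median difference of the 6 genes was 0.08 (0.32 in the first table, -0.03 in the second), and that of all tested genes -0.02. In bulk RNA, fewer cells with a transcript and less of it per cell cannot be told apart.

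Class II dimers were unequal in the levels of their partner transcripts. FPKM is a level per length, so different genes can be set side by side. H2-Ab1 was at 23.2 and 14.3 times the level of H2-Aa in WT 1 and WT 2, and at 21.9 and 43.4 times in MSC KO 1 and MSC KO 2. Here the beta chain was the abundant one, whereas H2-DM was unequal toward its alpha chain, with H2-DMa at 10.2 to 28.8 times the summed level of the beta chain genes H2-DMb1 and H2-DMb2. That ratio was lower in MSC KO 1 (10.2) and MSC KO 2 (16.3) than in WT 1 (24.1) and WT 2 (28.8). For H2-DO, which is made in B cells and some other cells, H2-Oa was at 6.57 to 9.08 times the level of H2-Ob. The scarcer chains were at low but measurable depth, with H2-DMb1 at about 34 to 122 fragments and H2-DMb2 at 59 to 117. H2-DMb1 and H2-DMb2 are near-identical copies, and how the authors' counting divided reads between them is not stated.

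**Figure D2:**
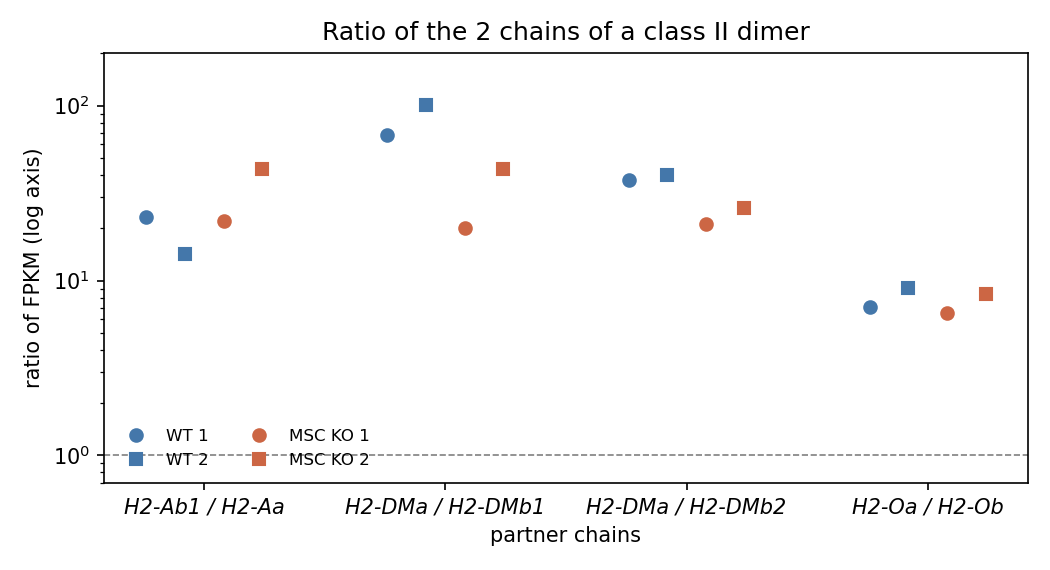
Ratio of FPKM of partner chains on a log axis in each library, with equality as a dashed line. The more abundant chain of each pair is the numerator, so the side of equality is set by that choice. Ratios run from 6.57 for H2-Oa over H2-Ob to 101 for H2-DMa over H2-DMb1 in WT 2.

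The promoters of these genes were set beside the levels, because the X and Y boxes are the shared entry point of CIITA. RefSeq windows (GRCm38.p6, 250 bases before to 50 after a start) were at hand for H2-Aa, H2-Eb1 and H2-DMa of the 6 genes, and H2-Ab1, Cd74 and Ciita were not matched. Shown 5′ to 3′ on the gene's strand are the members with a match, H2-Eb1 and H2-Aa. Then come H2-DMb1, the scarce partner of H2-DMa, and H2-Oa, where only the Y box pattern matched. An X box with other letters would not have matched. Capitals mark the Y box core TGATTGG, an X box core AACNGATG and the cyclic AMP response element TGACGTCA (both strands searched, letters chosen after the windows had been seen).
H2-Eb1, chr17:34305617-34305916, plus strand: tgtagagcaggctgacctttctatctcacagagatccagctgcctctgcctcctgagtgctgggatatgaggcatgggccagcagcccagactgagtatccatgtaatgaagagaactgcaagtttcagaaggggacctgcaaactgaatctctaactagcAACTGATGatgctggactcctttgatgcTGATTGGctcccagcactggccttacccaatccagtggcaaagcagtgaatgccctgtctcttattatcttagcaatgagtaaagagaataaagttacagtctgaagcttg
H2-Aa, chr17:34287774-34288073, minus strand: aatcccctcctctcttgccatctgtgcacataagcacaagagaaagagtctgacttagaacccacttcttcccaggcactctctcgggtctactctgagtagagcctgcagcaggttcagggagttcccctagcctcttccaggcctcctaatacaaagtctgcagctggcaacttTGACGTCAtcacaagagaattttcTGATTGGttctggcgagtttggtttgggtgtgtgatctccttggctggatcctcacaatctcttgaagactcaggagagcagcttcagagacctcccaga
H2-DMb1, chr17:34152941-34153240, plus strand: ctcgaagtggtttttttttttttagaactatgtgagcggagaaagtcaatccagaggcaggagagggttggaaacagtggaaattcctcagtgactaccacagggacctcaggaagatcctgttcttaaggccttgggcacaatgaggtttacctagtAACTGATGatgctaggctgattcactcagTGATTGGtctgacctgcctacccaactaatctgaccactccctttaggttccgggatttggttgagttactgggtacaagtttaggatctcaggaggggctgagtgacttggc
H2-Oa, chr17:34092129-34092428, plus strand: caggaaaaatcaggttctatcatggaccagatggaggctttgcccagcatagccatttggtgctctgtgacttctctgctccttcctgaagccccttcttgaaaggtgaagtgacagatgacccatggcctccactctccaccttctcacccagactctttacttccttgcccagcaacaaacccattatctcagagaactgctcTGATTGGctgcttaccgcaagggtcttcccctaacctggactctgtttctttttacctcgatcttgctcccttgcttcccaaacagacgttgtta

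The Y box core began 61 bases before the start in H2-Eb1, 50 in H2-Aa, 63 in H2-DMb1 and 45 in H2-Oa. Of the 8 class II chain genes with a window, 7 held it, while 7.82% of all 32851 windows did. These were the 4 genes shown and H2-DMb2, H2-Ob and H2-Eb2. The letters were chosen with these windows seen, and genes are set beside windows here, so no enrichment is read from these shares. The windows listed for H2-DMa (34122582 to 34122881 and 34125268 to 34125567) had no match to any of the 3 patterns. Judged by the positions of the other genes in both builds, these windows lie upstream of the measured H2-DMa locus. A promoter at the start of that locus was thus not searched. The X box core, in 2.32% of all windows, was in H2-Eb1, H2-DMb1, H2-DMb2 and H2-Eb2, and the cyclic AMP response element, in 1.79% of windows, was in H2-Aa. Both boxes stood together in 0.186% of windows (61 windows of 56 genes). The class II genes that matched both cores ranged from 0.00994 FPKM (H2-Eb2, MSC KO 1) to 16.2 FPKM (H2-Eb1, MSC KO 2). A match is a description of these letters and not a bound site.

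The 4 members on chromosome 17 lie within 181 kb, in a stretch of 252 kb from H2-Oa to H2-Ea-ps that held 15 genes in both tables. Neighbours in this stretch differed in direction. The class I loading genes Psmb9, Tap1, Psmb8 and Tap2, which sit between H2-DMb1 and H2-Ob, were below WT in both tables, as was H2-DMa. Tap1, a subunit of the peptide transporter, was at 203 and 200 FPKM in WT 1 and 2 and at 125 and 142 FPKM in MSC KO 1 and 2 (-0.59 ± 0.10 SE, adjusted p = 0.152, limma). H2-Ab1 and H2-Eb1, at the other end, were above WT. H2-Oa, at 28.9 and 29.2 FPKM in WT 1 and 2 and 28.9 and 26.2 FPKM in MSC KO 1 and 2, and Brd2, a bromodomain gene, differed from WT by 0.15 or less in each table.

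**Figure D3:**
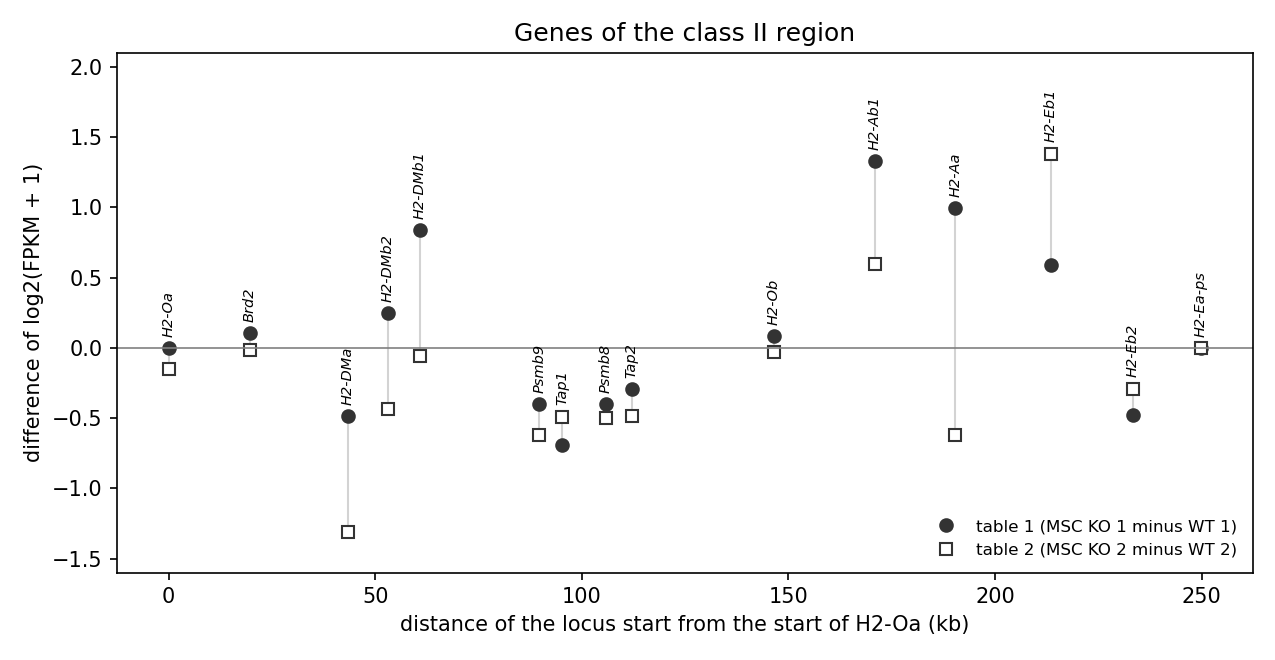
Difference of log2(FPKM + 1), MSC KO-labelled minus WT, for the 15 genes of the class II region against distance from the start of H2-Oa in kb; filled circles are the first table and open squares the second. H2-Ab1 and H2-Eb1 lie above 0 in both tables, H2-DMa, H2-Eb2 and the 4 class I loading genes below 0 in both, and H2-Aa on both sides.

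Other genes of the class II route were taken from a list of 24, of which 22 were matched and 20 tested. By limma 0 passed in either direction, and 7 had an unadjusted p under 0.05 (3 higher, 4 lower in the libraries labelled MSC KO), where 20.4% of all tested genes did (9.2% higher, 11.2% lower). The median difference of the list was -0.01, beside -0.02 over all genes. The 3 higher genes were Cd83, which holds class II at the cell surface (32.4 and 35.3 FPKM in WT 1 and 2, 45.3 and 86.1 in MSC KO 1 and 2; 0.87 ± 0.23 SE, adjusted p = 0.208, limma), the endosomal protease gene Lgmn and the cobalamin uptake receptor gene Cd320. Cd320 stood on the list, but cobalamin uptake is not a step of the class II route, so its count says nothing of that route. Lgmn was at 7.27 and 7.03 FPKM in WT 1 and 2 and at 10.6 and 10.2 FPKM in MSC KO 1 and 2, and its groups did not overlap. The 4 lower genes were Ifi30, Ctss, Nfyc and Creb1. Ifi30, a thiol reductase that unfolds antigens in endosomes, was at 69.6 and 76.0 FPKM in WT 1 and 2 and at 48.3 and 46.5 FPKM in MSC KO 1 and 2 (-0.61 ± 0.10 SE, adjusted p = 0.152, limma). Ctss, the cathepsin that trims the invariant chain, was at 113 and 120 FPKM in WT 1 and 2 and at 86.2 and 99.4 FPKM in MSC KO 1 and 2.

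The DNA-binding factors of the X and Y boxes were all detected. Rfx5 was between 4.46 and 5.25 FPKM, Rfxap between 13.6 and 16.4, and Rfxank between 3.13 and 4.32 over the 4 libraries. Of the NF-Y subunits, which bind the Y box, Nfya was at 17.6 to 23.8 FPKM, Nfyb at 28.2 to 39.7 and Nfyc at 13.7 to 18.9. Creb1, a factor of the X2 box, was at 4.99 to 7.84 FPKM. The box-binding factors were thus present in libraries where Ciita had at most about 15 fragments. Of the other protease genes of the list, Ctsb (41.8 to 46.4 FPKM) and Ctsd (74.6 to 83.3 FPKM) overlapped between the labels. Ctsl was at 4.86 and 4.36 FPKM in WT 1 and 2 and at 5.91 and 5.71 FPKM in MSC KO 1 and 2. Sppl2a, an intramembrane protease that clears the invariant chain remnant (listed under an older symbol), was at 13.4 to 15.003 FPKM. The ubiquitin ligase genes of the list had symbols that had turned into dates and were not matched.

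**Figure D4:**
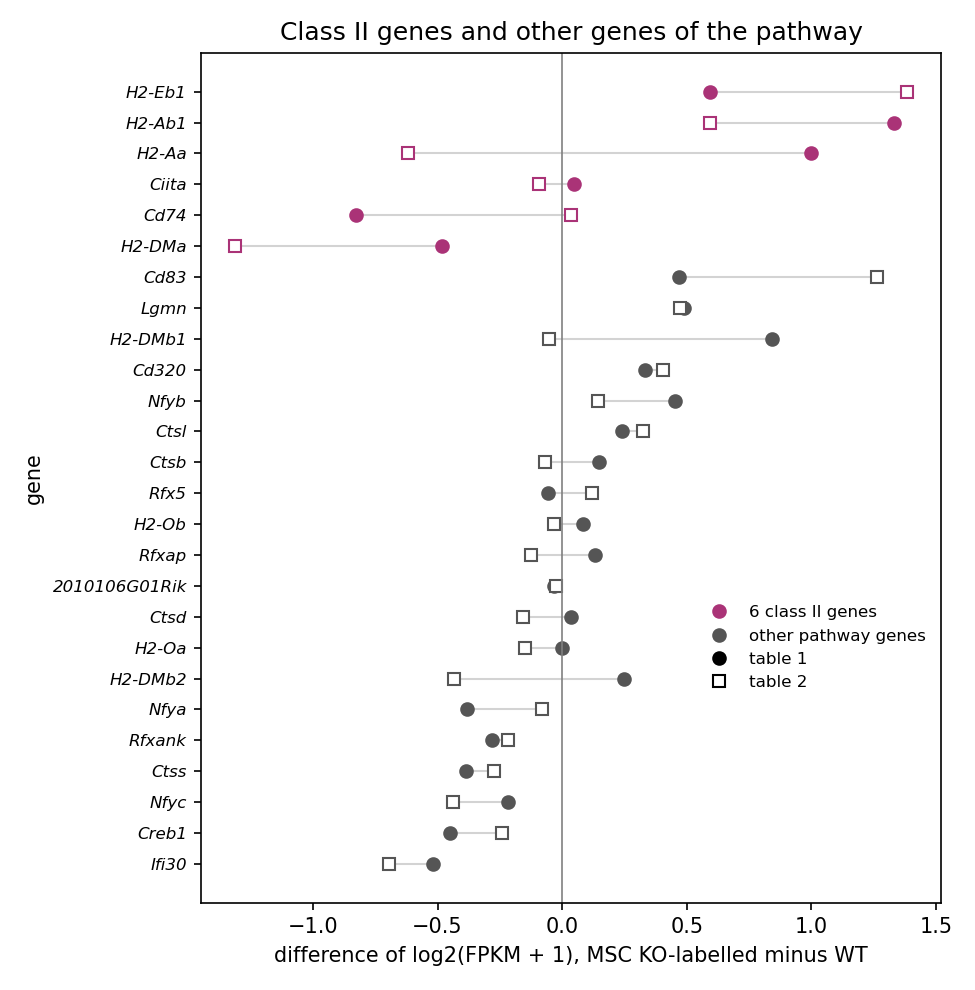
Difference of log2(FPKM + 1), MSC KO-labelled minus WT, for the 6 class II genes and the 20 tested genes of the pathway list; filled circles are the first table and open squares the second, joined by a line. Ifi30, Ctss, Nfyc and Creb1 lie below 0 in both tables and Cd83, Lgmn and Cd320 above 0 in both. Cd320, on the list, is not a gene of the class II route. H2-Aa has the longest line, from 1.00 to -0.62.

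Genes known to act on Ciita were mixed. Of 17 listed, 13 were tested and 0 passed by limma, with an unadjusted p under 0.05 for 8 (3 higher, 5 lower), beside 20.4% of all tested genes (9.2% higher, 11.2% lower). The median difference of the list was -0.01, beside -0.02 over all genes. Interferon gamma, which turns on Ciita in many cells, signals through Ifngr1, which was at 57.0 and 60.6 FPKM in WT 1 and 2 and at 30.3 and 22.8 FPKM in MSC KO 1 and 2 (-1.13 ± 0.16 SE, adjusted p = 0.139, limma). Its partner chain gene Ifngr2 was above WT (17.9 and 15.8 FPKM in WT 1 and 2, 26.6 and 22.2 in MSC KO 1 and 2). Irf1, a factor of that response, was at 76.6 and 79.1 FPKM in WT 1 and 2 and at 47.8 and 60.1 FPKM in MSC KO 1 and 2. Irf4, a lymphocyte factor, was above WT in both tables (1.32 ± 0.09 SE, adjusted p = 0.110, limma). Usf1 was left out because it was joined with another gene in the second table.

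The class I route gave a comparison with the other presentation pathway. Of 21 listed genes 19 were tested, 0 passed by limma, and 7 had an unadjusted p under 0.05, all of them lower in the libraries labelled MSC KO, beside 20.4% of all tested genes (11.2% lower). The median difference was -0.14, beside -0.02 over all genes. B2m, the light chain of class I, was at 2441 and 2388 FPKM in WT 1 and 2 and at 1792 and 1933 FPKM in MSC KO 1 and 2. The immunoproteasome genes Psmb8 (716 and 729 FPKM in WT 1 and 2, 542 and 516 in MSC KO 1 and 2), Psmb9 and Psmb10 were below WT in both tables. The heavy chain gene H2-K1 was close to WT, at 752 and 754 FPKM in WT 1 and 2 and 724 and 723 FPKM in MSC KO 1 and 2. No test compared the class I list with the class II list.

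Markers of class II-rich cells were mostly near 0. Of 13 B cell markers, 11 were below 1 FPKM in every library. The defining B cell genes Ms4a1 (0.0318 to 0.130 FPKM) and Pax5 (0 in 3 libraries, 0.153 in MSC KO 1) were low, and the list summed to 9.89 and 9.86 FPKM in WT 1 and 2 and to 8.31 and 9.75 FPKM in MSC KO 1 and 2. Most of that sum was Cd79b, at 4.63 to 6.67 FPKM. Spib was at 1.46 and 1.68 FPKM in WT 1 and 2 and at 0.419 and 3.79 FPKM in MSC KO 1 and 2. H2-Aa, H2-DMb1 and Ciita were each highest in MSC KO 1 and lowest in MSC KO 2. The part of B cells in the H2-Aa, H2-DMb1 and Ciita values was not tested.

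Of 11 dendritic cell markers, Clec9a and Cd209a were listed at 0 in all libraries, Itgax in all but MSC KO 1 (0.0285 FPKM), and Flt3 was at most 0.0958 FPKM. The list's sum, 242 and 252 FPKM in WT 1 and 2 and 345 and 349 FPKM in MSC KO 1 and 2, was mostly Ccr7 (221 to 295 FPKM), which naive T cells also express. Ly75, an endocytic receptor gene, was at 8.19 and 8.27 FPKM in WT 1 and 2 and at 11.5 and 13.4 FPKM in MSC KO 1 and 2. The chemokine gene Ccl22 was at 0.305 and 0.523 FPKM in WT 1 and 2 and at 0.958 and 2.43 FPKM in MSC KO 1 and 2. Batf3, which activated T cells express too, was at 9.64 and 11.2 FPKM in WT 1 and 2 and at 52.7 and 34.2 FPKM in MSC KO 1 and 2. Ly75, Ccl22, Ccr7 and Batf3 thus had both libraries labelled MSC KO above both WT libraries, as H2-Ab1 and H2-Eb1 did. Of all tested genes 26.6% did so, and Zbtb46 (1.48 to 3.54 FPKM) overlapped. Of the 5 tested genes of the list, 4 had an unadjusted p under 0.05 by limma, all higher, and 0 passed the adjusted p. Beside them, 20.4% of all tested genes had such an unadjusted p (9.2% higher). Of 13 macrophage and monocyte markers, 11 were below 1 FPKM in every library, Csf1r was at most 0.0441 FPKM and Fcgr1 was at 0 throughout. Cd68, a lysosomal gene, was at 1.354 and 1.394 FPKM in WT 1 and 2 and at 3.85 and 3.39 FPKM in MSC KO 1 and 2, and Mpeg1 at 1.47 and 1.66, then 0.132 and 0.382. That list summed to 4.35 and 3.89 FPKM in WT 1 and 2 and to 4.99 and 5.38 FPKM in MSC KO 1 and 2. The epithelial gene Epcam was at 2.42 to 2.82 FPKM, and the natural killer cell gene Ncr1 was listed at 0 in all 4 libraries. Of the CD8 chain genes, Cd8a was at 0.571 to 1.90 FPKM and Cd8b1 at 8.56 to 19.1 FPKM, beside 166 to 209 FPKM for Cd4. Cd74, H2-DMa and H2-Ab1 were each above the sum of the B cell list and of the macrophage list in each library. Each was below the sum of the dendritic cell list. How much class II transcript any such cells held was not measured, so these sums do not give their share. The part of any such cells in the H2-Ab1, H2-Eb1, H2-DMa and Cd74 values was not tested.

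**Figure D5:**
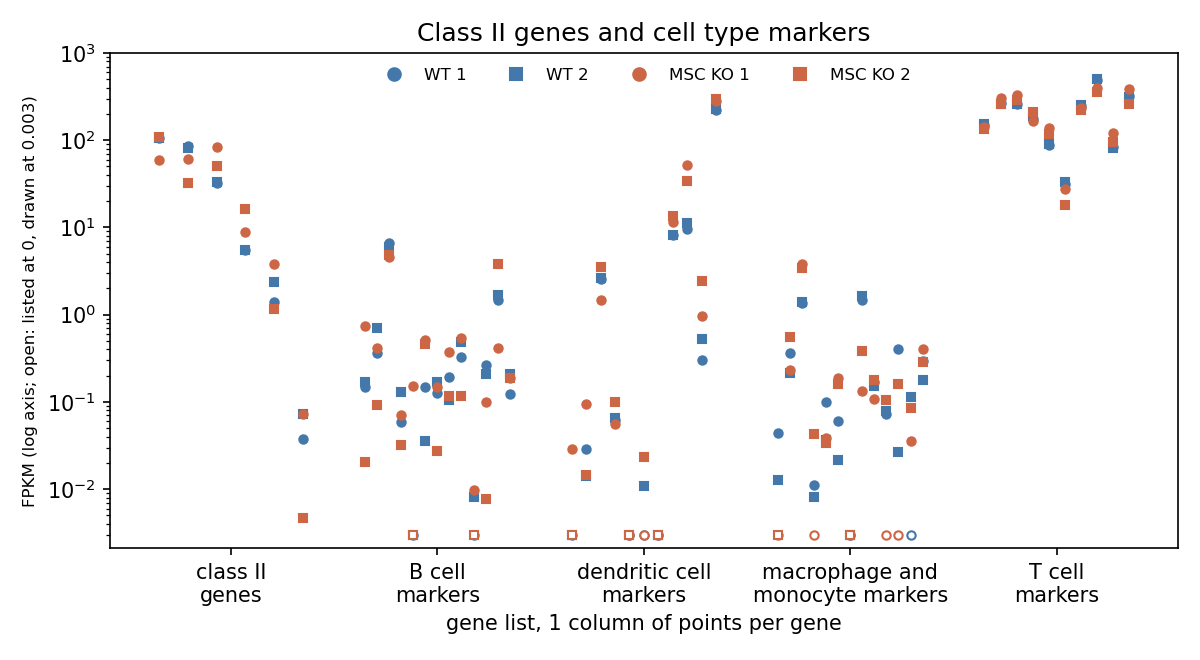
FPKM on a log axis for the 6 class II genes and for markers of B cells, dendritic cells, macrophages and monocytes, and T cells, 1 column of points per gene and colours as by label and replicate; open points are listed at 0. Cd74, H2-DMa and H2-Ab1 lie above every marker of B cells and macrophages, and below most T cell markers and the dendritic cell marker Ccr7.

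The members were not each other's nearest genes. Likeness was the distance between gene-centred log2(FPKM + 1) profiles over the 4 libraries, so it rests on few points. Nearest to H2-Ab1 were Sigirr, an inhibitory receptor of the interleukin-1 family (distance 0.07), the cortical actin gene Cttn (0.08) and Hif1a, the hypoxia factor (0.09). H2-Aa ranked 1739 of 10602 genes by distance to H2-Ab1, H2-Eb1 ranked 4140, Cd74 10070 and H2-DMa 10166. Nearest to H2-Eb1 were Hrsp12 (0.03), the nuclear lamina gene Lmna (0.10) and Cd200, a surface ligand (0.11). Near to Cd74 were St6gal1, a sialyltransferase (0.06), and the growth factor gene Hbegf (0.07). For H2-DMa they were Hsh2d (0.13), D18Ertd653e (0.18) and Gpr83, a receptor known from Treg cells (0.22), and for H2-Aa they were Arxes2 (0.17), the chemokine gene Ccl20 (0.26) and Mt3 (0.26).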

How the data were processed

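RNA-seq of 2 WT and 2 MSC KO libraries was deposited in 2 tables with 1 row per gene, each holding 1 library of either label. The submitters' processing notes name TopHat and mm9, and the TopHat version and gene models are not given in the sources used. The deposited values are FPKM, judged by the column layout and the values since no label names a unit, and the authors' p-value and q-value columns compare 1 library with 1. Rows with no symbol (49.9% to 54.1% of a library's summed FPKM) were left out, a repeated symbol was represented by its most highly expressed row, and symbols with a failed estimate or with loci that did not overlap were dropped. Depth was read from the 1-fragment step in genes with a single GENCODE M21 transcript of over 2500 bp, and fragments from each gene's first-numbered transcript there, with exact Poisson limits that cover counting error only. The labels were compared in limma 3.58.1 (R 4.3.3) on log2(FPKM + 1), genes with a mean of at least 1 FPKM, the table as a block, a trended prior, two-sided, Benjamini-Hochberg over 10603 genes. The script was tested on simulated data. The fit left 1 residual degree of freedom. Nothing says that replicates were separate cultures or mice, so p-values cover only the spread among these libraries, possibly technical. Replicate libraries of a label differed beyond counting noise and were counted separately. The members and lists were chosen with earlier results of these data known. Named were the members, the class II list, up to 4 genes of the class I and CIITA lists chosen by the smaller of their differences in the 2 tables (same sign in both), marker genes of 1 FPKM or more, and the 3 genes nearest to each member; other genes named, and the promoter motifs (a longer X box pattern was tried first), were chosen after their values were seen. Some genes that these rules select are not reported here.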

Additional observations from a re-analysis of the deposited data

How the results depend on the processing

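The count of genes called by limma was 1. It was 0 with no filter on low values, 0 with quantile normalization, 0 with a prior without trend and 7 after rescaling libraries to 1 common sum. With no replicate block it was 153, and of the 3 lists only the CIITA list then had a call, 1 gene (Irf4, adjusted p = 0.0270, limma). Same-numbered libraries deviated together with a Pearson r of 0.06 over 10603 genes, so the numbers do not show a pairing, and the block stands for the table. Leaving out 1 library gave 0 to 2672 genes called. Dropping WT 1 gave 0 calls and dropping WT 2 gave 3, whereas dropping MSC KO 1 gave 2301 and dropping MSC KO 2 gave 2672. Over these fits 0 to 8 genes of the class II list were called (4 without MSC KO 1, 8 without MSC KO 2), 0 to 14 of the class I list (10 and 14) and 0 to 10 of the CIITA list (6 and 10), and the fits without a WT library called 0 of each. Each such fit had no block, so the remaining library of a label is assumed to have the spread of the other label. Over 11 alternatives the differences kept their sign for H2-Ab1 (0.61 to 1.31), H2-Eb1 (0.59 to 1.39) and H2-DMa (-1.35 to -0.45). For these genes both libraries labelled MSC KO were on the same side of both WT libraries. Leaving out a library or changing the pseudocount could therefore not change the sign, so the kept sign adds no support. Cd74 changed sign without MSC KO 1 (0.04), H2-Aa without WT 1 or MSC KO 1 (lowest -0.38), and Ciita without WT 2 or MSC KO 2. The median of the 6 genes was -0.05 to 0.31. Depth limits Ciita most, at about 1 to 15 fragments.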

Other observations

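Among the other H2 entries, 11 were tested that were not matched to a list above, and those named were picked after their values were seen. An entry among them joins LOC547349 with H2-D1, a gene of the class I list that was not matched there. It was at 650 and 668 FPKM in WT 1 and 2 and at 573 and 551 FPKM in MSC KO 1 and 2. H2-Q10, a class I-like gene best known from liver, was at 1.73 and 1.91 FPKM in WT 1 and 2 and at 43.9 and 8.85 FPKM in MSC KO 1 and 2 (2.90 ± 0.63 SE, adjusted p = 0.175, limma). Its related gene H2-Q2 was at 1.93 and 1.87 FPKM in WT 1 and 2 and at 4.21 and 2.89 FPKM in MSC KO 1 and 2. H2-T24 was below WT, at 5.69 and 5.74 FPKM in WT 1 and 2 and at 3.57 and 2.85 FPKM in MSC KO 1 and 2 (-0.68 ± 0.13 SE, adjusted p = 0.153, limma). Genes of the Q and T groups are close copies of each other, and how the authors' counting divided shared reads is not stated, so these levels are uncertain.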
